A study of Synthetic plasmid and Mus musculus with 4 samples.

Results

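The retina experiment of a barcoded reporter assay was described here, as the RNA of each reporter construct against its DNA in the same tissue. Of 45670 constructs in the library, 36005 had at least 10 counts in each of the 3 retina DNA libraries and were kept. These constructs were summed over the genomic target they carry, called a region below, and 2031 of the 3483 targets had at least 5 kept constructs. The first letter of a target name gives its class. The tables used here give the letters alone, and from knowledge of the study R stands for sites hypersensitive to DNase in retina, B in brain, H in heart and L in liver. Of the regions tested, 477 were R, 439 B, 489 H and 626 L, with a median of 12 constructs each.

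A cis-regulatory element is a stretch of DNA, such as a promoter or enhancer, that binds transcription factors and sets the transcription of a gene. DNase hypersensitive sites are places where chromatin is open, and many of them are such elements, used in the tissue where they are open. In a reporter assay the element is lifted out of its chromosome and placed on a plasmid, so that its own sequence has to drive the transcript. The transcript carries a barcode, and the RNA count of the barcode over its DNA count reports the activity of the attached fragment. In the rodent retina most cells are rod photoreceptors, which are being made around birth and mature over the following weeks.

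The fragments were C57BL/6J genomic DNA, captured around the targets with RNA baits and cloned next to barcodes. Retinas of the CD-1 strain received the library by ex vivo electroporation at age P0 and stayed in culture for 8 days. Each of the 3 biological replicates came from 5 retinas, and each yielded 1 RNA and 1 DNA library. No other genotype or treatment entered the comparison, whose reference is the DNA of the same replicate. A pool of 5 retinas gives 1 value, so fewer cells using a fragment and less RNA per cell cannot be told apart. Barcode counts do not measure endogenous genes, and the tissue label was not checked against marker genes. RNA libraries held 7025820 to 10411511 counts and DNA libraries 6501061 to 12147398 counts.

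Activity is given on 2 scales. The first is the share of a region in the RNA library divided by its share in the DNA library of the same replicate, where 1 means equal shares. The second is a log2 RNA/DNA ratio in which 0 is the level of all H and L constructs pooled. This reference lay far below equal shares, at a log2 of -3.95, -3.75 and -3.67 in replicates 1, 2 and 3, because H and L constructs gave 3.36% to 4.10% of the RNA counts and 51.8% to 52.0% of the DNA counts.

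A construct is read in this assay by its barcode. The barcodes below tag the most active and the least active fragment of each of the 3 regions with the highest activity, and they are shown because all values of a construct rest on counting this sequence. They are written in the direction the deposited tables give, in lower case with no letters set apart.
R154, most active: tgcgtcgcattagga
R154, least active: tcctgggaacgaaca
R321, most active: tccccgtagctgaac
R321, least active: ccaggttcattattt
R368, most active: gattccgaggatcc
R368, least active: ggaggtactacaaag
The genomic sequence of the fragments was not analysed here, and positions are those of the deposited tables in build mm9.

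R constructs dominated the RNA of the retina in each replicate. Their share of the RNA counts was 94.7%, 94.1% and 93.7% in replicates 1, 2 and 3, against 24.9%, 25.2% and 24.8% of the DNA counts. The B constructs gave 1.94%, 2.07% and 2.18% of the RNA from about as much DNA as R (23.0% to 23.2%). H constructs gave 1.75%, 1.85% and 1.95% of the RNA, and L constructs 1.61%, 2.00% and 2.15%. RNA and DNA shares did not overlap in any class, with R above and the other classes below their DNA share. The exact permutation test over the 6 libraries, which did not use the pairing by replicate, gave p = 0.1 for each class. This is the smallest value 3 against 3 libraries allow (two-sided), so these differences cannot pass 0.05 by that test. R thus reached a ratio of shares of 3.77 ± 0.035 (SD, n = 3), compared with 0.0894 ± 0.0055 in class B, 0.0773 ± 0.0041 in class H and 0.0686 ± 0.0098 in class L. The replicate values of H and L overlapped, and those of B lay above both, from 0.0836 to 0.0945.

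**Figure D1:**
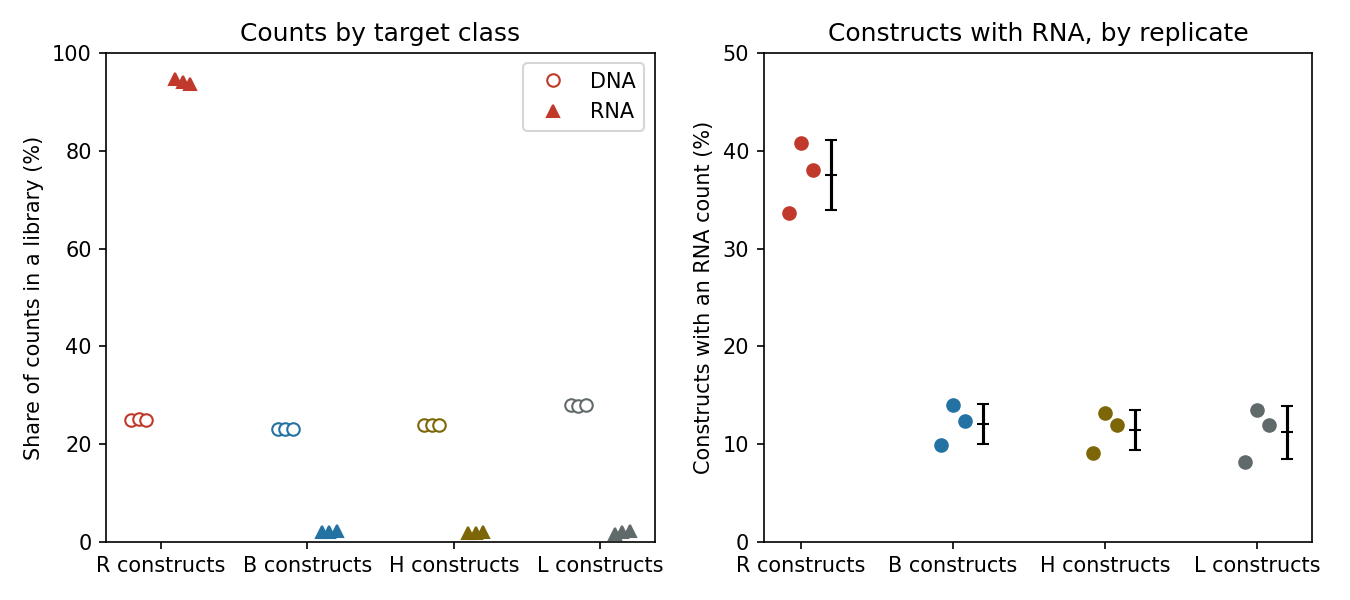
Left, share of the counts of a library (%) that fell on each target class, for the 3 DNA libraries (open circles) and the 3 RNA libraries (filled triangles). Right, share of constructs with at least 1 RNA count in each replicate, with the mean and SD beside the points. R constructs lie between 93.7% and 94.7% of RNA, and the B, H and L points lie below 2.2%.

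R constructs were also seen in RNA more often and more repeatedly. RNA was found for 33.7%, 40.8% and 38.0% of the R constructs in replicates 1, 2 and 3. For B constructs these shares were 9.96%, 14.0% and 12.3%, and those of H (9.13%, 13.1% and 12.0%) and L (8.15%, 13.5% and 12.0%) were as low. RNA in all 3 replicates was found for 1975 R constructs (22.1%), 61 B (0.73%), 54 H (0.63%) and 66 L constructs (0.65%). Of the R constructs seen in one replicate, 63.1% to 76.5% were seen again in another, compared with 16.6% to 23.4% for B, 14.9% to 22.2% for H and 13.2% to 22.9% for L.

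Outside the R class, constructs with RNA mostly had it in a single replicate. RNA in exactly 1 replicate was found for 1977 B, 2052 H and 2380 L constructs, and in exactly 2 for 427, 364 and 420. For R constructs these numbers were 2036 and 1046. The median count of a detected construct was 33 to 46 for B, 33 to 45 for H and 28 to 41 for L in the 3 replicates, and 239 to 403 for R. Among H constructs that reached 100 RNA counts in any replicate, 599 of 851 (70.4%) had no count at all in both other replicates. The same held for 671 of 951 L constructs (70.6%) and 594 of 877 B constructs (67.7%), but for 669 of 3299 R constructs (20.3%). Detection moved with the amount of DNA. Among L constructs RNA was seen for 5.43% ± 1.74 at 36 to 310 summed DNA counts and 19.8% ± 4.98 at 1011 or more, and among R constructs for 26.5% ± 3.02 and 49.0% ± 3.22 (SD, n = 3). The R share was above that of the other classes in each of the 4 bins of DNA counts. The part of DNA amount in the detection of single constructs was not tested.

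At the level of regions, 190 of 2031 rose above the pooled H and L level, which is 9.35% of all regions tested (edgeR quasi-likelihood test with the replicate as a block, Benjamini-Hochberg adjusted p under 0.05). R regions made up 185 of them, which is 38.8% of the R class (95% exact binomial interval 34.4 to 43.3). The other 5 were B regions (1.14%, interval 0.37 to 2.64). These intervals treat regions as independent, although all share the same 6 libraries, and do not cover the spread between methods. DESeq2 called 205 R regions and limma 137. No H and no L region was called by the main edgeR fit, where 2 H and 0 L regions had an unadjusted p under 0.05. DESeq2 called 4 H and 0 L regions, edgeR without the replicate block 2 H and 0 L regions, and limma none of either. Lower calls by the main edgeR fit numbered 0 (0.0%), where 136 regions had an unadjusted p under 0.05. DESeq2 called 373 lower, limma 148 and edgeR without the replicate block 107. With total library size as the scaling, where 0 means equal shares, 89 regions were higher, all of them R regions, and 924 lower. The 89 are among the 190.

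R regions lay above B, H and L regions along the range of activity, whereas B, H and L did not keep 1 order in all replicates. In replicate 3 the median of the replicate log2 values was -1.69 in H and -1.755 in B regions. The fitted log2 RNA/DNA had a median of 1.22 in R regions, with quartiles at -1.31 and 4.42. The median was -1.88 in B, -2.23 in H and -2.54 in L regions, against -1.67 over all regions. When fitted without the replicate block, the median over all regions was -0.18. The upper quartile of the main fit was also below 0 in B (-0.32), H (-0.62) and L (-0.84). That of the replicate log2 values was not. It was 0.50, 0.64 and 0.22 in B regions in replicates 1, 2 and 3. In H regions it was 0.20, 0.42 and 0.35, and in L regions -0.32, 0.38 and 0.16. The log2 ratio was above 0 in 3 of 3 replicates for 288 regions (14.2% of all tested), namely 232 R (48.6%), 23 B (5.24%), 20 H (4.09%) and 13 L regions (2.08%). A region without any RNA count was seen 3 times among R regions (0.63%), and for 19 B (4.33%), 24 H (4.91%) and 33 L regions (5.27%).

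**Figure D2:**
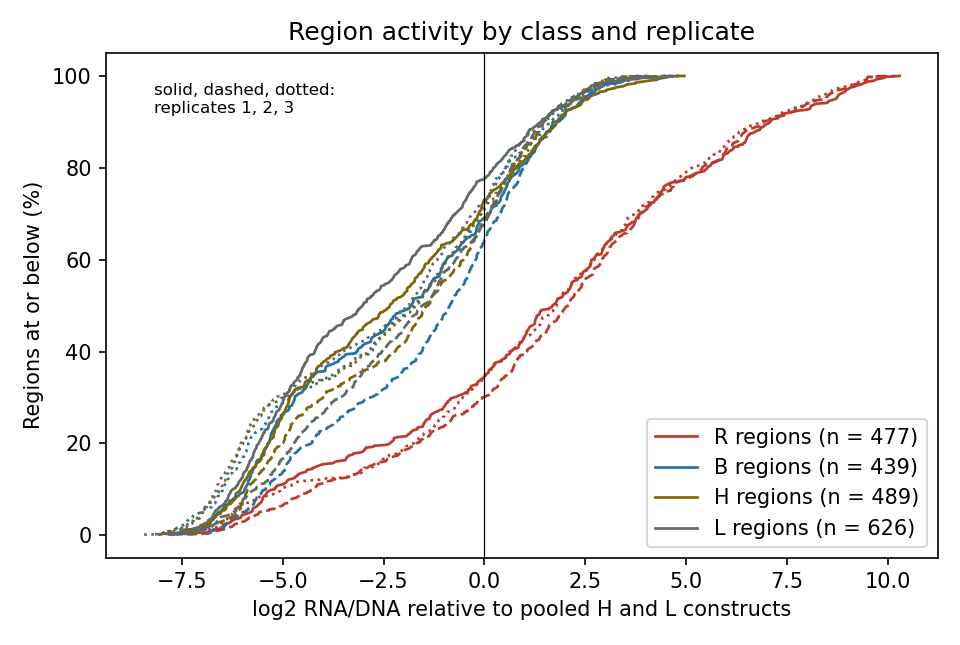
Cumulative share of regions (y axis, %) at or below a log2 RNA/DNA ratio (x axis, relative to the pooled H and L constructs, prior count of 2), by class and replicate. The R curves lie to the right, with medians of 1.69, 2.10 and 1.79, while the B, H and L medians lie between -3.02 and -0.85.

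Activity within the R class was spread over a wide range. At a log2 of 8 or more stood 33 R regions, and these gave 61.5% ± 0.84 of all RNA counts (SD, n = 3). A further 44 R regions between 6 and 8 gave 17.1% ± 0.098, and 53 between 4 and 6 gave 6.57% ± 0.32. Every region of these 3 groups was called. Between 2 and 4, 53 of 76 R regions were called, and they and their uncalled neighbours gave 2.65% ± 0.15. Between 0 and 2, 2 of 96 were called, and 175 R regions lay below 0 and gave 0.48% ± 0.091 of the RNA. Ranked by RNA over all classes, 19 regions or 159 constructs were enough for 50% of the RNA.

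The 12 R regions with the highest fitted ratio had fitted log2 values between 8.99 and 9.99, and edgeR gave adjusted p-values of 2.79e-298 (R539) or lower. Such small values rest on a spread shared by all regions. R154, on chromosome 19 from 42645866 to 42646165, had 97131, 94313 and 146309 RNA counts from 2026, 1657 and 1683 DNA counts in replicates 1, 2 and 3. Its RNA share was 81.2, 53.6 and 91.4 times its DNA share, so replicate 2 was the lowest, and the fitted log2 was 9.99 (SE 0.21). R321, on chromosome 6 from 3925746 to 3926045, had 121500, 125911 and 190084 RNA counts and ratios of shares of 52.2, 74.0 and 58.7. R368, on chromosome 14 from 52727746 to 52728045, had 140040, 126135 and 174686 RNA counts and ratios of 63.9, 53.0 and 61.7. The replicates of these 3 regions overlapped, and the order among them does not exceed that spread.

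The other 9 of the 12 had ratios of shares between 29.0 and 62.1. R392 (chromosome 11 from 67495426 to 67495725) gave ratios of 62.1, 53.7 and 56.8. R366 (chromosome 9 from 106216566 to 106216865) gave 56.7, 52.8 and 55.6, and R539 (chromosome 1 from 77657066 to 77657365) gave 44.9, 50.6 and 52.8. In R24 (chromosome 6 from 60691746 to 60692045) the ratios were 46.7, 46.9 and 46.5, the closest of the 12. R332 (chromosome 13 from 92998046 to 92998345) stood at 53.5, 42.2 and 44.1, and R349 (chromosome 5 from 108818806 to 108819105) at 42.9, 47.9 and 43.9. R64 (chromosome 19 from 53864126 to 53864425) had 37.5, 38.5 and 49.7. R148 (chromosome 2 from 3407146 to 3407445) had 41.4, 45.6 and 29.0, and R22 (chromosome 5 from 44471926 to 44472225) had 38.8, 41.3 and 30.7. In R148 a single construct carried 95.4% of the RNA, and 4 of its 8 constructs had RNA in all replicates. Without that construct its fitted log2 was 5.30 in place of 9.04, and R64 without its strongest construct was at 8.40 in place of 9.17. In R366, by contrast, 16 of 16 constructs had RNA in all replicates, and the strongest carried 18.0%.

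Of the 5 R regions that gave most RNA, R392 was also among the 12 with the highest ratio. R392 alone gave 10.5% ± 0.67 of the RNA counts (784111, 705577 and 1012600) from 28 constructs. R177, on chromosome 9 from 108983066 to 108983365, gave 5.87% ± 0.37 (435612, 396197 and 561621 counts) from 63 constructs, 50 of which had RNA in all replicates. R28 (chromosome 8 from 128124206 to 128124505) gave 3.17% ± 0.088, R288 (chromosome 3 from 95895926 to 95896225) gave 2.82% ± 0.17, and R189 (chromosome 13 from 41339706 to 41340005) gave 2.42% ± 0.30 (SD, n = 3). Their fitted log2 values were 8.53 for R177, 8.22 for R28, 8.78 for R288 and 8.09 for R189.

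**Figure D3:**
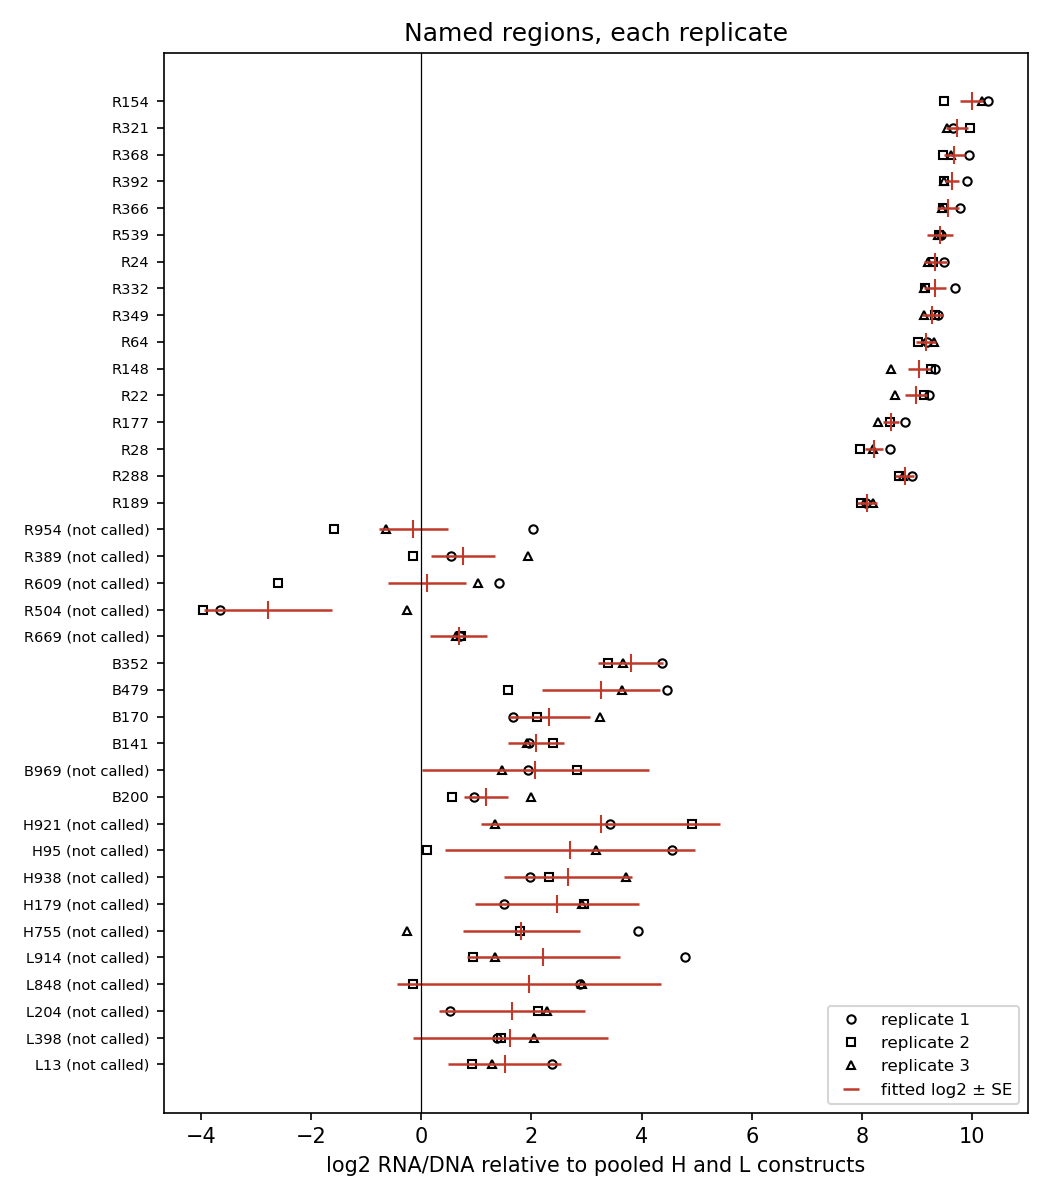
log2 RNA/DNA (x axis, relative to the pooled H and L constructs) of the regions named in the text, with open symbols for replicates 1, 2 and 3 and a red bar for the fitted value and its SE. The called R regions lie between 7.96 and 10.29 in every replicate, and the replicate values of the uncalled R regions lie between -3.96 and 2.03.

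The remaining 292 R regions were not called. The 5 uncalled R regions with the most constructs were R954 (85 constructs), R389 (61), R609 (61), R504 (56) and R669 (56). R954, on chromosome 6 from 113217186 to 113217485, had 3273, 352 and 973 RNA counts from 20978, 13471 and 20341 DNA counts. R389 (chromosome 9 from 59942026 to 59942325) had 1118, 685 and 5156 RNA counts, and R609 (chromosome 17 from 25858466 to 25858765) had 1975, 155 and 2710. Replicate 2 was the lowest in each of these 3. R504 (chromosome 3 from 88949526 to 88949825) was the lowest, with 61, 56 and 1199 RNA counts and a log2 of -2.78 (SE 1.16, edgeR adjusted p = 0.116). It was called lower in DESeq2 (adjusted p = 0.0111) and by edgeR without its strongest construct (-3.43, adjusted p = 0.0061). In that edgeR fit every region lost its strongest construct but the pooled H and L reference did not. The median of all regions was then -3.62, below the value of R504. R669 (chromosome 14 from 65175006 to 65175305) was even across replicates, with log2 values of 0.70, 0.73 and 0.63. None of the 5 reached an RNA share equal to its DNA share in any replicate, and their highest ratio was 0.30 (R389, replicate 3).

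In the B class 5 regions were called higher, at levels far under those of the leading R regions. B352 (chromosome 6 from 144966866 to 144967165) had 3080, 2106 and 3587 RNA counts from 3905, 2553 and 3781 DNA counts, a log2 of 3.80 (SE 0.59, edgeR adjusted p = 1.34e-09). Of its RNA, 98.3% came from 1 of 7 constructs, and without that construct the region lay at -2.00 (edgeR adjusted p = 0.604). In that setting, which left out the strongest construct of every region, the median of all regions was -3.62. B141 (chromosome 1 from 133207026 to 133207325) had 1906, 3305 and 3476 RNA counts and a log2 of 2.09 (SE 0.51, edgeR adjusted p = 0.000471), but without replicate 2 it was 1.94 (edgeR adjusted p = 0.141). B479 (chromosome 5 from 64414246 to 64414545) had 1757, 256 and 1918 RNA counts and a log2 of 3.27 (SE 1.07). Its edgeR adjusted p was 0.0258, and 0.617 and 0.466 without replicates 1 and 3, at log2 values of 2.61 and 3.02. B170 (chromosome 1 from 28271126 to 28271425) had 741, 1090 and 4511 RNA counts and a log2 of 2.33 (SE 0.74, edgeR adjusted p = 0.0184). Without replicate 2 it was 2.45 and without replicate 3 it was 1.88, with edgeR adjusted p of 0.132 and 0.702. B200 (chromosome 8 from 128559006 to 128559305) had 2507, 2113 and 8969 RNA counts over 96 constructs and a log2 of 1.17 (SE 0.40, edgeR adjusted p = 0.0349). This became 1.48 without replicate 2 and 0.76 without replicate 3 (edgeR adjusted p of 0.056 and 0.695). The call of B352 held with each replicate left out in turn and in limma, which called none of the other 4. With TMM scaling B479, B170 and B200 were not called (edgeR adjusted p of 0.0757, 0.059 and 0.133), and B479 was not called without its strongest construct (2.60, edgeR adjusted p = 0.125). B200 also lost its call with RLE size factors, without the replicate block (edgeR adjusted p = 0.0763), with a DNA minimum of 1 or 50 and when targets of at least 2 constructs were tested. With total library size as the scaling all 5 lay below 0, and B141 (-1.74, edgeR adjusted p = 0.0166) and B200 (-2.67, edgeR adjusted p = 1.08e-12) passed the threshold as lower. The RNA share of these B regions was 0.110 to 1.43 times their DNA share over all replicates, and B969 (chromosome 2 from 32452286 to 32452585), with a higher fitted log2 than B200 (2.07, SE 2.07), was not called. With a DNA minimum of 1 it was (3.24, edgeR adjusted p = 0.0426).

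The highest H and L regions did not pass the edgeR test. DESeq2 called 3 of the H regions named here, H921 (adjusted p = 0.0231), H938 (0.0078) and H179 (0.0331), and edgeR without the replicate block called H938 (2.76, adjusted p = 0.0231). H921 (chromosome 4 from 132781966 to 132782265) had the highest fitted log2 of both classes, 3.26 (SE 2.16, edgeR adjusted p = 0.468), from 407, 844 and 232 RNA counts. The next H regions were H95 at 2.70, H938 at 2.66, H179 at 2.46 and H755 at 1.82. H95 had 1007, 33 and 469 RNA counts, and H755 had 1967, 868 and 250. Among L regions L914 was highest at 2.22 (SE 1.39) from 1817, 186 and 331 RNA counts, followed by L848 at 1.96, L204 at 1.65, L398 at 1.62 and L13 at 1.51. The edgeR adjusted p of these 10 regions lay between 0.154 (H938) and 0.721 (L848). A single construct gave between 38.7% (L13) and 97.2% (H938) of their RNA.

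Replicates gave like values where a region was called and little likeness elsewhere. Across the 185 called R regions the log2 ratios of 2 replicates correlated with Pearson's r of 0.92 to 0.93, and 2 replicates differed by 0.38 to 0.46 in the median. Across the 292 uncalled R regions r was 0.18 to 0.27, across B regions 0.10 to 0.16, across H regions 0.03 to 0.16 and across L regions 0.01 to 0.10, with median differences of 2.24 to 2.75. These are correlations across regions, which share libraries and depth and are not replicates, and the called regions were picked with these same replicates.

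**Figure D4:**
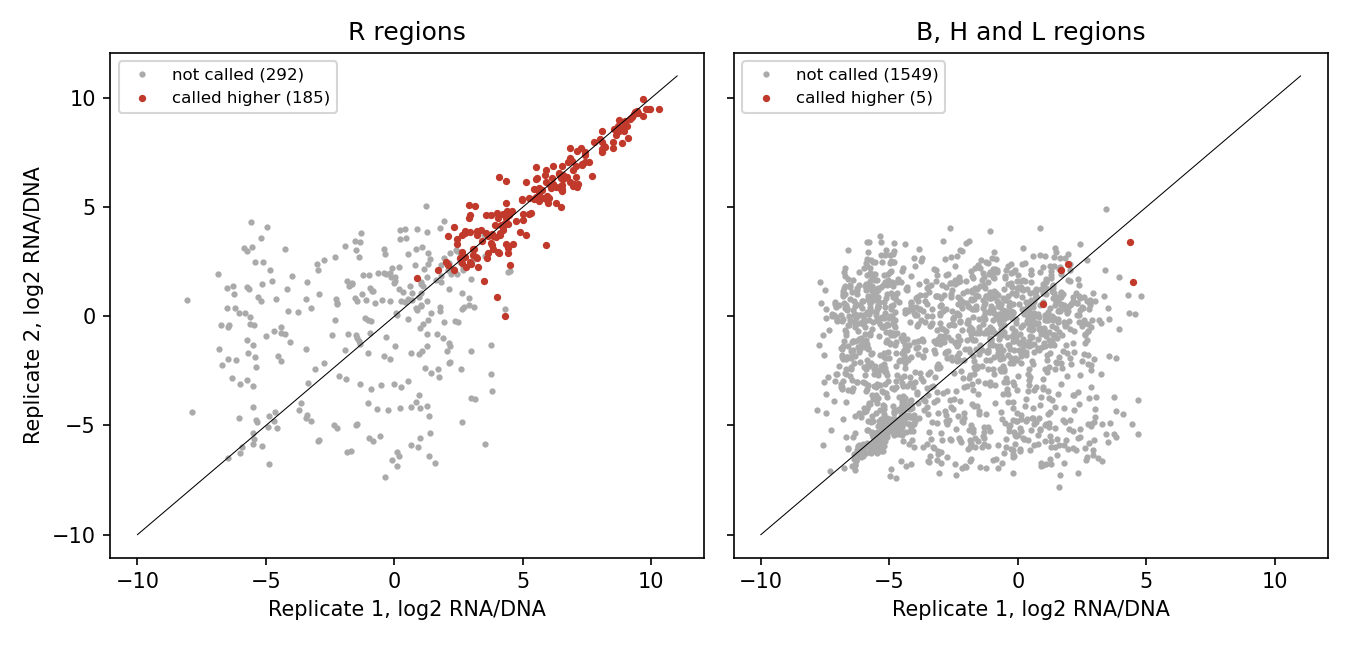
log2 RNA/DNA of each region in replicate 1 (x axis) and replicate 2 (y axis), relative to the pooled H and L constructs, for R regions (left) and B, H and L regions (right), with the line of equal values. Red points were called higher (185 and 5), and the dense streak near -5 on the right holds regions without RNA in both replicates, placed by the prior count and their DNA.

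Single constructs were called as well. Of 36005 constructs, 1041 rose above the pooled H and L level (2.89% of those tested, edgeR adjusted p under 0.05), and each had RNA in 3 of 3 replicates. The calls used these same RNA counts, so this trait is not separate from the call. One R148 fragment with 1550, 0 and 0 RNA counts had a fitted log2 of -3.75 (SE 3.81). DESeq2 called 1869, limma 1632 and edgeR with RLE size factors 176. The R class held 1039, which is 11.6% of R constructs, in 189 targets, with a median log2 of 7.84 and a range from 3.89 to 12.52. H and L constructs had no call, where 2 H and 0 L constructs had an unadjusted p under 0.05. The 2 B constructs were one of B326 and one of B352. The B326 fragment (chromosome 4 from 82879079 to 82879427, 349 bp) had 2454, 2361 and 9678 RNA counts from 68, 41 and 223 DNA counts, a log2 of 9.52 (SE 0.86, edgeR adjusted p = 3.27e-26). The other kept B326 fragment, of 481 bp from 82878896 to 82879376, had no RNA count from 243, 24 and 84 DNA counts, although it covers all 300 bp of the window. The nearest R target of B326 was R442, 1808639 bp away, and that of B352 was R695, 31607 bp away. The B352 fragment (chromosome 6 from 144966912 to 144967415) had 3080, 2090 and 3450 RNA counts and a log2 of 4.31 (SE 0.84, edgeR adjusted p = 1.37e-05).

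One construct was called lower (0.00278% of those tested), and it is named because it is single, after its value was seen. In the same edgeR fit 21127 of 36005 constructs were lower at an unadjusted p under 0.05, so the single call rests on the adjustment. DESeq2 called 28923 constructs lower and limma 13346. The construct called lower by edgeR carries a fragment of R200 (chromosome 7 from 149317460 to 149317963). It had 5643, 10196 and 7781 DNA counts, more in sum than any other construct, and no RNA count. Against a floor of 3 counts over the 3 RNA libraries, its ratio was at least 534-fold lower than the pooled H and L level, a bound that covers counting error alone (edgeR adjusted p = 0.032). The call was lost with any one replicate left out. R200 itself was not called (log2 -1.33, edgeR adjusted p = 0.486), and 21 of its other constructs had RNA.

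Fragments of one strong region differed from one another. All 6 fragments of R154 were called, from a mean log2 of 8.53 to 10.37. The weakest was a plus-strand fragment of 387 bp with 520, 1596 and 2685 RNA counts from 89, 23 and 85 DNA counts, and the strongest a minus-strand fragment of 527 bp with 65866, 61318 and 92619 RNA counts from 964, 808 and 903 DNA counts. Both cover all 300 bp of the window. In R321 the mean log2 of the 11 fragments ran from 8.31 to 11.53, and in R368 that of 11 fragments from 6.23 to 11.09. The weakest of R368, covering 213 bp of the window, was the one fragment of these 3 regions that was not called (log2 6.25, SE 2.36, edgeR adjusted p = 0.079). Over the 185 called R regions, the strongest construct gave a median of 31.6% of the RNA of its region (quartiles 21.9% and 47.4%), and over 50% in 40 regions. In H and L regions with RNA this median was 73.7%, and the share was over 50% in 833 of 1058. With the strongest construct of every region left out, 175 regions were called, of which 172 were among the 190.

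The fragments of called and uncalled R regions had close medians. The median fragment length was 463 bp and 462 bp, the median overlap with the window 281 bp in both, and the median summed DNA count of a construct 565 in both. The share of constructs with RNA per replicate was 62.7% ± 3.76 in called and 17.7% ± 3.45 in uncalled R regions, against 11.3% ± 2.45 in H and L regions (SD, n = 3). The calls used these same RNA counts, so a difference in RNA between called and uncalled R regions was fixed by the grouping. Called R regions had a median of 14 constructs and uncalled ones 11, with medians of 11809 and 9646 summed DNA counts a region, and the part of this in the calls was not tested. Uncalled R regions gave 1.76% ± 0.25 of the RNA from 12.9% ± 0.12 of the DNA, and H and L regions 3.48% ± 0.34 from 47.9% ± 0.11.

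Within the called R regions, activity moved with how much of the window a fragment held. Fragments with 1 to 100 bp of the window had an RNA share of 0.0185, 0.0214 and 0.139 times their DNA share in replicates 1, 2 and 3 (95 constructs), so their mean of 0.0598 ± 0.0690 rests on replicate 3. Those with 101 to 200 bp had 1.66 ± 0.16 (624 constructs), those with 201 to 299 bp 10.0 ± 0.13 (1381 constructs) and those with the whole window 10.7 ± 0.32 (1515 constructs, SD, n = 3). The order of these groups was the same in 3 of 3 replicates with no overlap. The 201 to 299 bp group (9.91, 10.16 and 10.02) and the whole-window group (10.98, 10.36 and 10.78) lay close. Among fragments with the whole window the ratio was 10.4 ± 0.37 at 300 to 399 bp, 10.1 ± 0.27 at 400 to 499 bp and 11.4 ± 0.57 at 500 to 682 bp. These groups hold fragments from different sets of regions, so region and fragment cannot be told apart in them.

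Orientation was compared within regions, since enhancers are classically defined as working in either orientation. In 150 called R regions with at least 3 kept fragments on each strand, 144 had a mean log2 above 0 on both strands, and the 2 strands correlated with r = 0.73 across regions. The plus minus minus difference had a median of -0.33 over regions (-0.42, -0.12 and -0.32 in replicates 1, 2 and 3), and 81 regions differed by less than 1. In R177, with 39 plus and 24 minus fragments, the log2 values were 8.78, 8.40 and 8.27 on the plus strand and 8.76, 8.69 and 8.35 on the minus strand. R189 was lower on the minus strand, with 8.48, 8.38 and 8.57 against 6.50, 6.34 and 6.53. The plus strand was higher in 3 of 3 replicates in 29 regions and the minus strand in 48. No test was made, because the fragments of the 2 strands also differ in position and the replicates share the same fragments.

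**Figure D5:**
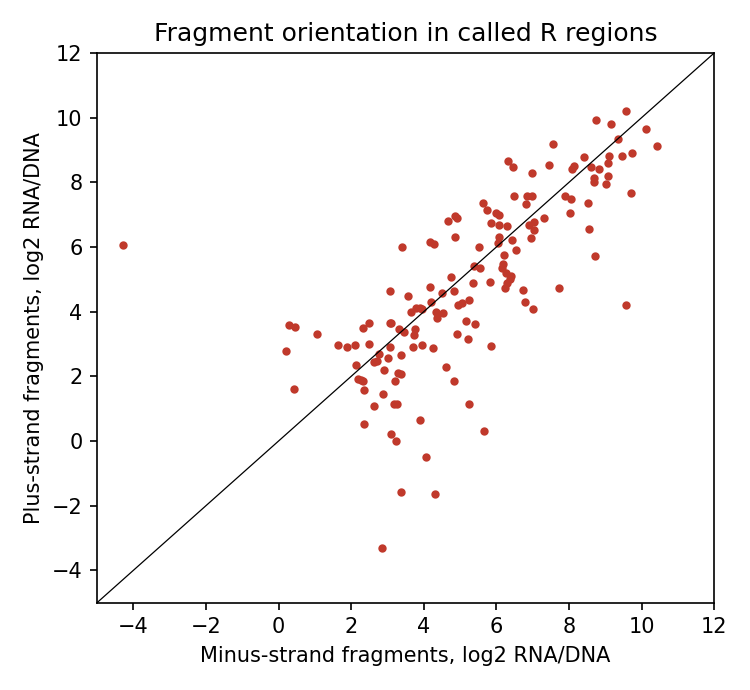
Mean log2 RNA/DNA over replicates of the minus-strand fragments (x axis) and plus-strand fragments (y axis) of 150 called R regions, relative to the pooled H and L constructs, with the line of equal values. The 2 strands correlated with r = 0.73 across regions, and they differed by less than 1 in 81 of the 150 regions. The point at -4.30 and 6.05 is R973.

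Among the largest differences between strands, R973, R97 and R148 drew much of their RNA from single fragments, and they were picked after their values were seen. R973 (chromosome 18 from 65675386 to 65675685) had 6187, 7039 and 9301 RNA counts on the plus strand and none on the minus strand. Of the plus-strand RNA 96.4% came from 1 of 8 fragments, which covers 127 bp of the window and had 6098, 6971 and 8640 RNA counts from 443, 724 and 411 DNA counts. The 5 plus-strand fragments with the whole window had no count in at least one replicate. In R97 (chromosome 17 from 25589566 to 25589865) one of 25 minus-strand fragments, covering 142 bp, gave 62.4% of the minus-strand RNA. In R148 one of 5 minus-strand fragments gave 96.8%.

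At the edge of the selection, 418 constructs had exactly 10 counts in their poorest DNA library and 454 had 9. RNA was seen in any replicate for 20.1% of the first and 18.1% of the second group. Targets with 5 kept constructs numbered 182 and those with 4 numbered 253, and 84.1% and 77.1% of them had RNA in any replicate.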

How the data were processed

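Per the file headers, the deposited retina table holds raw counts of each barcode in 3 RNA and 3 DNA libraries, which shared 1 lane per the labels. A second deposited table holds log2 values, found by recomputation to be the RNA share over the DNA share plus 0.001, for the constructs whose 3 DNA counts all reached 10. The recomputed log2 values differed by at most 5.0e-10, and they were used for nothing else. The construct table, deposited in 2 identical copies, gave fragment length, strand, window overlap and counts of linking reads, per the file headers. The tools in the submitters' processing notes are bedtools 2.22.1, SAMtools 0.1.19, Bowtie2 2.1.0 and FastQC, with build mm9 and no roles. How reads became counts is not given in the sources used here. Deposited starts count from 0 and are given here counted from 1. Windows of 300 bp were derived from the deposited overlaps.

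RNA was tested against DNA with edgeR 4.0.16 in R 4.3.3 (robust quasi-likelihood F test, Benjamini-Hochberg, threshold 0.05), over all 2031 regions or all 36005 constructs. Library sizes were the pooled H and L counts. The replicate number was a block because the labels describe an RNA and a DNA library for each biological replicate. The correlation of deviations between same-numbered libraries ran from -0.014 to 0.010, and the pairing rests on the labels, not on the values. Standard errors come from the fold change and F. Replicate log2 values used a prior count of 2. DESeq2 1.42.0, limma 3.58.1 and other scalings and minimums were alternatives. The alternative without the top construct of each region kept the library sizes of all H and L constructs. The rest was done in Python 3.11.15 with pandas 2.3.3, scipy 1.17.1, matplotlib 3.10.9 and numpy 2.4.6.

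Named regions were the 12 R regions with the highest fitted log2 among those called with 1 sign in 3 replicates, the 5 R regions with most RNA, the 5 highest B, H and L regions each, and the 5 uncalled R regions with most constructs. The fifth called B region, B200, and the R973, R97, R148, R189 and R177 orientation values were added after their values were seen. Named constructs were the most and least active of the first 3 regions and those called outside R. The members, lists and tests were chosen with earlier results of these data known. No molecular identifiers are named in the sources used here, and every interval or floor covers counting error alone. Each replicate is called biological in the labels, which do not describe the animals further. Cortex libraries were not used here. A planned motif count was not run, because genomic sequence was not analysed here.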

Additional observations from a re-analysis of the deposited data

Results flagged for a closer look

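Constructs with no DNA count in any retina library were outside the comparison, yet some had RNA. Among 262 such R constructs 17 (6.49%, 95% exact binomial interval 3.82 to 10.2) had 5299 RNA counts in sum, of which 1271, 1382 and 2646 fell in replicates 1, 2 and 3, and 5 of them had RNA in all 3 replicates. Among 260 B constructs 1 had RNA, with 74 counts, and among 341 L constructs 4 had 375 counts in sum. Over all classes 24 of 1098 constructs without DNA had 5750 RNA counts. These sums were singled out because they are above 3 counts, the limit that a single count of 0 allows. The 2 counts of H constructs are below that limit. It belongs to a single count, while these are sums over many constructs and 3 libraries, so it decides nothing about them. Groups of 3 libraries are too small for the outlier test that was used.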

How the results depend on the processing

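The number of regions called higher was 190 of 2031 tested, and 134 to 232 in all alternatives except scaling by total library size, which gave 89. The 134 were among 1274 targets with at least 10 constructs, and the 232 among 2916 with at least 2. Where the same 2031 regions were tested, total library size apart, the number ran from 138 (limma) to 218 (DESeq2). It was 161 to 185 with 1 replicate left out. Against the main median of -1.67, the median log2 of all regions was -5.49 with total library size, -1.96 with TMM and -1.81 with RLE size factors. Without the replicate block, on the scaling of the main fit, it was -0.18. It was -3.62 without the top construct of each region, where the pooled H and L reference still held the top constructs. Calls of lower activity depended on the method: 0 in the main fit, 3 with TMM, 3 with RLE, 924 with total library size, 373 in DESeq2, 148 in limma, 107 without the replicate block, 19 with a DNA minimum of 50 and 361 without the top construct of each region. Without the replicate block 204 regions were higher. Leaving out a replicate gave 0 lower regions. Constructs called higher numbered 1041, and 176 with RLE, 1869 in DESeq2, 1632 in limma, 1629 without the replicate block and 802 to 841 with 1 replicate left out. Constructs called lower numbered 1, and 23374 with TMM, 24165 with total library size, 29430 with RLE, 28923 in DESeq2, 13346 in limma, 23906 without the replicate block, and 0 with a DNA minimum of 50 or with any replicate left out. The cause was not tested.

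Without the top construct of each region the ratio of RNA to DNA share was 3.88 in class R, 0.0574 in B, 0.0438 in H and 0.0375 in L. With a DNA minimum of 50 the share of constructs with RNA was 41.7% for R, 14.5% for B and 13.7% for H, and counting only 5 or more RNA counts it was 9.72% for B and 9.24% for H. With 1 replicate left out the ratio was 3.75 to 3.79 in class R, 0.0868 to 0.0922 in B, 0.0753 to 0.0794 in H and 0.0646 to 0.0741 in L, and the share with RNA 35.9% to 39.4%, 11.1% to 13.2%, 10.6% to 12.6% and 10.1% to 12.7%.

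With total library size these named regions changed sign: B352 (-0.028), B479 (-0.56), B170 (-1.50), B141 (-1.74), B969 (-1.76), B200 (-2.67), H921 (-0.60), H95 (-1.12), H938 (-1.17), H179 (-1.37), H755 (-2.01), L914 (-1.59), L848 (-1.88), L204 (-2.18), L398 (-2.22), L13 (-2.32), R389 (-3.08), R609 (-3.73) and R669 (-3.15). Without the top construct, where the median of all regions was -3.62, they were B352 (-2.00), H921 (-5.95), H95 (-0.26), H938 (-2.88), H755 (-1.34), L848 (-3.89), L204 (-1.04), L398 (-7.12) and R609 (-0.20). R609 was also at -0.16 with TMM, -0.022 with RLE, -0.048 in limma, -0.78 without replicate 1, 1.22 without replicate 2 and -0.60 without replicate 3. R954 was at 0.67 without the replicate block, 0.69 without replicate 2 and 0.22 without replicate 3. The 16 R regions named for the highest ratio or the most RNA kept sign and call in each alternative that tested them, while R973 and R97 were not followed through the alternatives.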

Other observations

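The constructs that missed the DNA minimum were not used for the report, and R fragments led there too. Among these 9665 constructs, 24.7% were R constructs, and they gave 94.3%, 91.9% and 91.6% of the RNA counts in replicates 1, 2 and 3, against 24.3% ± 0.17 of the DNA counts (SD, n = 3). Targets with fewer than 5 kept constructs were not tested as regions either. There the RNA share of R constructs was 2.42 ± 0.049 times their DNA share (354 targets), and it was 0.0938 ± 0.0245 in class B, 0.0676 ± 0.0146 in H and 0.0756 ± 0.0136 in L (SD, n = 3). The R ratio of these small targets was below the 3.77 of all R constructs in 3 of 3 replicates.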
